A study of Mus musculus with 21 samples.

Results

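The IL1 family ligands, receptors and antagonists described here are 10 of the 32285 genes of the count table, and all 10 were detected. They were chosen by name. Il1a, Il1b, Il18 and Il33 encode ligands. Il1r1, Il1rl1 and Il18r1 encode the receptor chains that bind IL1, IL33 and IL18, and Il1rap encodes the accessory chain shared by the IL1 and IL33 receptors. Il1rn encodes the soluble receptor antagonist of IL1, and Il1r2 encodes a decoy receptor that binds IL1 without signalling.

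IL1 alpha and IL1 beta bind IL1R1, which then recruits IL1RAP and, through MYD88 and IRAK kinases, activates NF-kB. IL1 beta and IL18 are made as precursors that caspase-1 cleaves inside inflammasomes, whereas IL33 is stored in the nuclei of stromal and epithelial cells and is released on damage to act on ST2, the product of Il1rl1. In tumors, IL1 from myeloid cells is a known inducer of chemokines and acute phase genes in fibroblasts.

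Single-cell RNA sequencing had been performed on MT-ret melanoma, transplanted under the skin of mT/mG mice as fragments. No Cre was used in these mice, so every host cell carried membrane-bound tdTomato from the ROSA26 locus and the grafted MM cells carried none. The groups were the TME of primary tumors (host cells sorted as tdTomato+), the TME of lung metastases that arose after the primary tumor was removed, unchallenged lungs of mT/mG mice without a graft, and sorted MM cells of either tumor site. Male and female hosts were used, and the labels give neither age nor sex of single animals.

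After libraries with identical content were counted once, 16 libraries with 100359 cells remained, 12 of them from TME or lung. Metastasis TME and primary tumor TME had 4 libraries each (replicates 1-3, 4, 5 and 6), unchallenged lung had 4 (replicates 1, 4, 5 and 6), and MM cells had 2 of each site (replicates 4 and 5). The labels give replicates 1-3 as 1 sample per tumor site, whereas the library names list its mice separately. These were mice 2 and 3 for metastasis and mice 1, 2 and 3 for primary tumor. The cells of these names were joined here into 1 library per tumor site. Metastasis and primary tumor libraries 1-3, 5 and 6 came in part from the same mice by their names. By the library names, lung replicate 1 and the 1-3 libraries were of 1 sequencing run, all replicates 4 of another, and replicates 5 and 6 of the last, so same-numbered libraries also shared a run. The same cells had in part been deposited under several library names: those of metastasis TME replicates 5 and 6 and primary tumor TME replicates 5 and 6 also under replicate 7 or 8 with other mouse numbers, and those of metastasis TME replicate 6 also under a name of sorted MM cells. The mouse, number and sort of these 4 libraries are therefore taken from the name that was kept and are uncertain. Libraries held 303 to 30419 cells and 1777036 to 60339415 unique transcripts (UMIs), with the lowest median UMIs per cell in primary tumor TME replicate 6 (1203) and unchallenged lung replicate 6 (1605). Of 120 library pairs, 81 shared cell barcodes, at most 227 in a pair. Metastasis MM replicate 4, sorted as MM cells, held 284 melanoma cells among its 638 cells, and host cell types made up most of the rest. In the other direction, metastasis TME replicate 5 held 2159 cells of the melanoma clusters among its 5166 cells, and the other TME libraries 4 to 19. This count does not include 1514 of the 2383 cells of primary tumor TME replicate 6. They were named fibroblasts but, when clustered again, fell into a subcluster led by melanoma markers, as described below. Their identity was not tested. Some libraries were sorted for tdTomato+ cells and others for tdTomato+ CD45- cells, and the labels do not say which, so the share of immune cells in a library is not interpreted.

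Levels are given as CPM, the UMIs of a gene scaled to counts per 1e6 UMIs of all cells of a type in a library, for libraries with at least 20 such cells. CPM of droplet libraries also holds RNA that was free in the suspension, so the level in a cell type that should lack the gene is given beside the results. Clusters were named from marker genes, and none of the 10 genes took part in the clustering or the marker lists. The neutrophil cluster carried all 8 of its markers (S100a8, S100a9, Csf3r and others), the C1q macrophages all 7, each of the 3 endothelial clusters all 8, and the 3 fibroblast clusters 6 to 8 of 8.

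The genes lie in a few groups in the mouse genome (GRCm38). Il1a (chr2:129299610-129309972) and Il1b (chr2:129364570-129371139) are neighbours on the minus strand of chromosome 2, and Il1rn (chr2:24336853-24351494) lies on the same chromosome. An antisense gene, Il1bos, overlaps Il1b. On chromosome 1, Il1r2 (chr1:40074079-40125231), Il1r1 (chr1:40225080-40317257), Il1rl1 (chr1:40429570-40465415) and Il18r1 (chr1:40465552-40500854) follow each other on the plus strand, with 136 bases between the last pair. Il1rap (chr16:26581704-26730117), Il18 (chr9:50554827-50581840) and Il33 (chr19:29925114-29960718) stand alone.

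The 250 bases before the annotated starts were read for the 10 genes (17 windows) from RefSeq starts on GRCm38.p6. Il1a, Il1b and Il33 carried the letters TATAAA within the last 50 bases, as did 1151 of all 32851 windows (3.50%). These 3 windows are shown because they are the ones of this family with these letters near the start, and all 3 belong to ligands. Each is printed 5′ to 3′ on the strand of its gene, ends at the base before the start, overlaps no annotated exon, and has TATAAA in capitals, which begins 32, 31 and 29 bases before the start of Il1a, Il1b and Il33. They are chr2:129309973-129310222 (minus), chr2:129371140-129371389 (minus) and chr19:29945540-29945789 (plus, upstream of the downstream-most of the starts of Il33).
Il1a: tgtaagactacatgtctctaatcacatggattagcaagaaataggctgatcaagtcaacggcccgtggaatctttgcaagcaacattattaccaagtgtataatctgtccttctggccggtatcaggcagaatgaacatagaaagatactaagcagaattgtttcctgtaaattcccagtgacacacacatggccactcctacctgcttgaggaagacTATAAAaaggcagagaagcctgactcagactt
Il1b: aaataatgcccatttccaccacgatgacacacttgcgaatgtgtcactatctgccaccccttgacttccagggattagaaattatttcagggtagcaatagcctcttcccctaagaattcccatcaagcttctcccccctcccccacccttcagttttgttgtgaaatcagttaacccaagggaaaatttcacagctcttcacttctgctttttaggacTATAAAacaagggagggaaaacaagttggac
Il33: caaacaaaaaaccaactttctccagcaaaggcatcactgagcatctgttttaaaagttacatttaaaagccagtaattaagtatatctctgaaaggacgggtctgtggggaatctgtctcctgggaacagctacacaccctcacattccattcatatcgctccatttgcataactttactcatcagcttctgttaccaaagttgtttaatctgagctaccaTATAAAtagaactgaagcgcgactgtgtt
TATAAA was searched on both strands and occurred somewhere in 12.4% of all windows of this length. The C/EBP-like pattern TTGCNNAA, also on both strands, was in 9.56% of them and the ETS-like pattern GAGGAA in 23.2%. The window of Il1b printed above held TATAAA and neither of these. A match describes letters only.

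**Figure D1:**
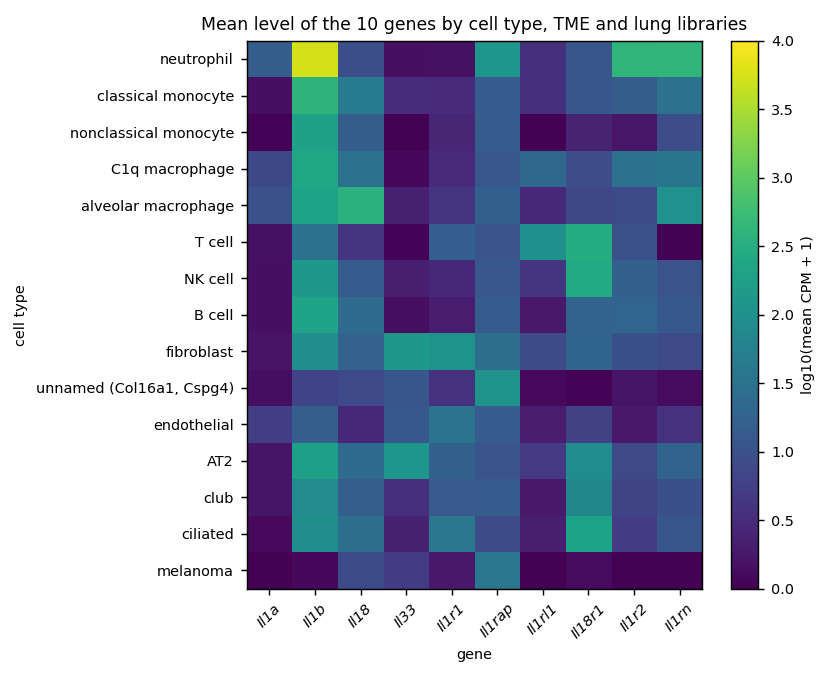
Heat map of the level of each of the 10 genes in each cell type, as log10 of the mean CPM + 1 over TME and unchallenged lung libraries with at least 20 cells of the type. Il1b, Il1rn and Il1r2 peak in neutrophils, Il18 in alveolar macrophages, Il33 in fibroblasts and AT-2 cells, and Il18r1 in T, NK and ciliated cells.

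The ligand Il1b had its highest level per cell type in neutrophils. Its level in neutrophils was 5472 ± 2220 CPM (SD, n = 9 libraries), and the type with the next level, classical monocytes, had 393 ± 231 CPM (n = 9), a gap larger than the sum of both SDs. In every library with both types, neutrophils exceeded C1q macrophages, by 25.6-fold in the mean (9 of 9 libraries; exact two-sided sign-flip permutation test, adjusted p = 0.00977 over 10 pairs of cell types). Endothelial cells, which should hold little of it, had 0 to 33.8 CPM in 11 of 12 libraries and 113 CPM in unchallenged lung replicate 6. With each cell thinned to 1000 UMIs, 67.9% to 98.0% of neutrophils carried an Il1b UMI (74.4% to 98.2% unthinned), against 0% to 9.73% of endothelial cells (0% to 15.4% unthinned). The median UMIs per cell were 1459 to 3346.5 in these neutrophils and 1581 to 6294.5 in the endothelial cells.

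The share of Il1b UMIs by cell type differed between the libraries. These shares also depend on how many immune cells the sort left in a library, so they are not compared between tissues. In the metastasis TME, neutrophils held 60.9% to 81.1% of the Il1b UMIs while making up 0.794% to 17.7% of the cells. In the primary tumor TME libraries with neutrophils, C1q macrophages held 64.7% and 60.3% and were 66.0% and 71.3% of the cells, and neutrophils held 25.5% and 36.7%. In unchallenged lung replicate 6, Il1b UMIs were spread over many types: neutrophils held 20.6%, ciliated cells 20.0% and alveolar macrophages 19.4%. B cells of that library had an Il1b level of 466 CPM, above the 298 CPM of its C1q macrophages, so its C1q macrophage level is not above the background. In metastasis TME replicate 1-3, C1q macrophages had 165 CPM, which lay below the 589 CPM of 24 B cells (52 UMIs) and above the 5.27 CPM of endothelial cells and 12.5 CPM of NK cells.

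Il1a was low in every named cell type. Neutrophils had 14.0 ± 32.4 CPM (n = 9), which rests on primary tumor TME replicate 4 with 99.5 CPM from 58 UMIs. The other 8 libraries had 0 to 13.3 CPM, and the difference from C1q macrophages did not pass the test (0.644-fold; exact two-sided sign-flip permutation test, adjusted p = 0.304). Lung endothelial cells had 5.88 to 12.4 CPM from 9 to 50 UMIs, and most of these UMIs lay in cluster 17, 1 of the 3 endothelial clusters. B cells, as background, had 0 to 2.81 CPM.

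Il18 had another source. Alveolar macrophages reached 439 CPM in metastasis TME replicate 1-3 and 411, 405, 363 and 202 CPM in the 4 unchallenged lungs, in all 364 ± 94.4 CPM (n = 5). Classical monocytes followed with 41.5 CPM, beyond the sum of the SDs. C1q macrophages exceeded neutrophils, 4.93-fold in the mean and in 8 of 9 libraries (exact two-sided sign-flip permutation test, adjusted p = 0.0391), at 6.48 to 61.0 CPM against 0 to 31.1 CPM. This call was lost in 9 of 18 alternatives, with adjusted p up to 0.273 in the same test. Thinning to 1000 UMIs, a minimum of 50 cells, and leaving out any of several single libraries each ended it. B cells had up to 79.3 CPM of Il18 in unchallenged lung replicate 6, so single libraries of C1q macrophages lie inside the background.

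Il33, the ligand of ST2, was found in structural cells. Fibroblasts had 133 ± 95.8 CPM (n = 8) and AT-2 cells, the surfactant-producing cells of the alveoli, 127 ± 72.7 CPM (n = 3), with no gap between them. Endothelial cells came next with 11.6 ± 12.4 CPM, below AT-2 cells by more than the sum of the SDs. Within libraries, fibroblasts exceeded endothelial cells 9.19-fold in the mean (8 of 8; exact two-sided sign-flip permutation test, adjusted p = 0.0130). Neutrophils had at most 2.58 CPM.

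Among the receptors, Il1r1 was broad and low in this set of cells. Fibroblasts came first with 114 ± 90.8 CPM (n = 8), ciliated cells had 37.8 CPM and endothelial cells 32.6 ± 15.7 CPM (n = 12), and neighbours in this order overlapped within their SDs. Within libraries, fibroblasts exceeded endothelial cells in 8 of 8, 2.62-fold in the mean (exact two-sided sign-flip permutation test, adjusted p = 0.0130). Neutrophils had at most 1.85 CPM, so the cells richest in the ligand Il1b showed almost none of the signalling receptor.

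The antagonists lay with the ligand. Il1r2, the decoy receptor, was at 408 ± 204 CPM in neutrophils (n = 9) and at 27.9 CPM in C1q macrophages, which came second beyond the sum of the SDs. The C1q macrophage mean rests on metastasis TME replicate 4 (184 CPM, 22 UMIs in 26 cells), and the median of the 10 libraries was 10.5 CPM. Neutrophils were above C1q macrophages in 9 of 9 libraries, 46.2-fold in the mean for Il1r2 (exact two-sided sign-flip permutation test, adjusted p = 0.00977). Endothelial cells had at most 4.07 CPM, but NK cells had 30.2 CPM (60 UMIs) in unchallenged lung replicate 6, so the C1q macrophage mean lies within the background. B cells had up to 68.0 CPM in metastasis TME replicate 1-3, from 6 UMIs that lay in 4.17% of 24 cells. Il1rn was at 427 ± 399 CPM in neutrophils and at 105 ± 7.99 CPM in alveolar macrophages (n = 5), which overlapped. Neutrophils exceeded C1q macrophages 14.0-fold in Il1rn (9 of 9; the same exact test, adjusted p = 0.00977), and endothelial cells had at most 21.6 CPM, while AT-2, B and NK cells of unchallenged lung replicate 6 reached 45.9 to 49.5 CPM.

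The accessory chain Il1rap had its highest levels in neutrophils, 124 ± 52.2 CPM (n = 9), and in a cluster left unnamed and led by Col16a1, Cspg4, Bche, Sema3d and Sox6, 112 ± 30.9 CPM. The difference of neutrophils from C1q macrophages was 12.7-fold in the mean, in 9 of 9 libraries (exact two-sided sign-flip permutation test, adjusted p = 0.00977). T cells had 7.91 to 15.7 CPM of Il1rap, with a mean of 10.4 CPM, and the means of B and NK cells were 13.4 and 11.2 CPM. The part of free RNA in these values was not tested. Sorted MM cells carried the accessory chain too, at 43.1 and 45.9 CPM in metastases and 52.0 and 77.7 CPM in primary tumors.

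Il18r1 marked lymphocytes and, at a like level, ciliated cells. T cells had 295 ± 54.6 CPM and NK cells 279 ± 119 CPM (n = 5 each), and the difference of NK from T cells within libraries did not pass the test (0.890-fold, higher in 3 of 5; exact sign-flip permutation test, adjusted p = 0.688, where 5 libraries cannot go below 0.0625 unadjusted). Ciliated cells, called RCC in the study, had 166 and 314 CPM in metastasis TME and 141, 264 and 156 CPM in unchallenged lung. These values were above those of AT-2 cells (88.3 ± 43.7 CPM, n = 3) by more than the sum of the SDs, and above B cells (0 to 46.3 CPM) and neutrophils (0 to 34.5 CPM), which serve as background.

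Il1rl1 was the rarest of the receptors, with 1019 UMIs in 0.649% of cells. The T cell cluster had 99.7 ± 64.8 CPM, from 49.1 to 172 CPM, and C1q macrophages had 21.1 ± 20.3 CPM, which overlapped. Neutrophils had at most 12.4 CPM, from 2 UMIs. Endothelial cells did not pass the test against fibroblasts within libraries (0.451-fold, higher in 2 of 8; exact two-sided sign-flip permutation test, adjusted p = 0.273). Of 1038 cells of the T cell cluster in TME and lung libraries, 75 held an Il1rl1 UMI. Of these, 73.3% held Gata3 (95% exact binomial interval 61.9% to 82.9%) against 29.3% (26.4% to 32.3%) of the others, and 38.7% held Cd3e (27.6% to 50.6%) against 65.0% (61.9% to 68.0%). Il7r was in 89.3% of them against 63.2%, and Rora in 72.0% against 39.7%. Gata3 and Rora are transcription factors of type 2 lymphocytes and Cd3e is part of the T cell receptor complex. These genes were chosen after values were seen, cells are not replicates, and the intervals cover counting error only.

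The genes whose mean level over 35 cell type and tissue means was most like that of a member are given as a description, since these means share libraries. Nearest to Il1b were Nlrp3 (Pearson r = 0.947), the sensor of the inflammasome, and Csf3r (0.943), the receptor of a neutrophil growth factor. For Il1rn these were Clec4d (0.951) and Siglece (0.919), and for Il1r2 Mxd1 (0.870) and Osm (0.852). Il33 was most like Col6a1 (0.920) and Bmp1 (0.900), both genes of the extracellular matrix. Il1rl1 was most like Tnfsf8 (0.910) and Icos (0.773), and Il18r1 most like Rnf43 (0.874) and Myb (0.857). Weaker likeness was seen for Il1r1 (Tshz2, 0.849), Il18 (Cib2, 0.804) and Il1a (Sema6b, 0.728). By Spearman's rho, the 3 nearest genes stayed for Il1rn and Il1r2 and 2 of 3 for Il1rl1, but at most 1 of 3 for the other 7 members.

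The next comparisons set the tissues against each other within a cell type. Primary tumors grew under the skin, and no normal skin is among the samples. Between primary tumor and unchallenged lung, the part of the tumor and the part of the organ therefore cannot be told apart. UMIs were summed per library and cell type, and libraries were compared with edgeR's quasi-likelihood test, adjusted by Benjamini-Hochberg over all genes tested. Log2 fold changes are given ± SE. Few libraries had enough cells of each type, so the p-values rest on 2 to 4 libraries per tissue. Members not named as tested in a cell type did not pass the filter on low counts there.

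In neutrophils, the antagonist Il1rn was higher in primary tumors than in unchallenged lung. Its levels were 1380 and 686 CPM in primary tumor TME replicates 1-3 and 4, and 157, 292, 205 and 222 CPM in lung replicates 1, 4, 5 and 6. The groups did not overlap. The log2 fold change was 2.28 ± 0.40 (edgeR, adjusted p = 0.00315, n = 2 and 4). Metastasis neutrophils had 364, 92.4 and 444 CPM in replicates 1-3, 5 and 6, of which the second lay below all lungs and the others between lung and primary tumors, and they did not pass the test against primary tumors (−1.69, adjusted p = 0.176). Il1rn was the 1 call among the 4 members tested in primary tumor neutrophils, where 7.32% of 3973 genes were called. None of the 4 was called between metastasis and primary tumor (0.227% of genes called) or between metastasis and lung (14.2% called), where 2 and 1 of them had an unadjusted p under 0.05. DESeq2 called 1 member in each of the 3 comparisons. With the replicate number as a block, which marks shared runs and in part shared mice, the Il1rn call was lost (1.73, edgeR adjusted p = 0.115).

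C1q macrophage markers moved with the Il1rn result. The 7 markers summed to 571 and 2996 CPM in primary tumor neutrophils and to 62.7 to 260 CPM in lung neutrophils, and their part in the result was not tested. The C1q macrophages of these primary tumor libraries had 80.0 and 76.0 CPM of Il1rn, below the neutrophils.

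**Figure D2:**
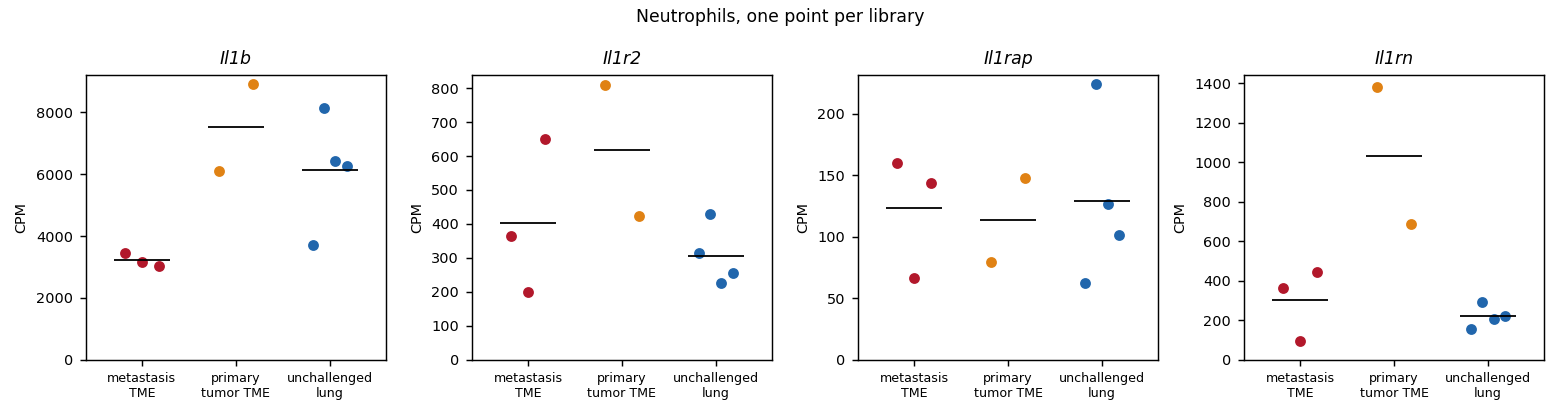
Levels of Il1b, Il1r2, Il1rap and Il1rn in neutrophils as CPM (vertical axes) by tissue (horizontal axes); each point is a library with at least 20 neutrophils and the black line is the mean. For Il1rn both primary tumor libraries (686 and 1380 CPM) lie above all lung libraries, and for Il1b the 3 metastasis libraries (3037 to 3465 CPM) lie below both primary tumor libraries.

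Il1b itself was lowest in the neutrophils of metastasis TME without passing the test. Its levels were 3465, 3156 and 3037 CPM in metastasis TME, 6118 and 8931 CPM in primary tumor TME, and 3717, 8138, 6425 and 6261 CPM in lung replicates 1, 4, 5 and 6. These metastasis TME libraries did not overlap with those of either other tissue, but 63 neutrophils in the library sorted as metastasis MM replicate 4, which was not part of the test, had 5333 CPM, inside the lung range. Metastasis minus primary tumor was −1.23 ± 0.35 on the log2 scale (edgeR, adjusted p = 0.324) and metastasis minus lung −0.83 ± 0.30 (adjusted p = 0.0794). Il1r2 was 809 and 424 CPM in primary tumor TME, 364, 198 and 650 CPM in metastasis TME and 225 to 429 CPM in lung, and was not called (primary tumor minus lung 1.08, edgeR adjusted p = 0.118). Il1rap, at 66.0 to 160 CPM in metastasis TME, 79.6 and 148 CPM in primary tumor TME and 62.7 to 224 CPM in lung, overlapped in all pairs of tissues.

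In C1q macrophages, the receptor Il1rl1 was lower in both tumor sites than in unchallenged lung, and Il1rn was higher in primary tumors. Il1rl1 stood at 40.6, 40.3, 60.3 and 20.9 CPM in lung replicates 1, 4, 5 and 6, from 11 to 22 UMIs each. In metastasis TME it was 2.69, 25, 0 and 4.32 CPM in replicates 1-3, 4, 5 and 6, with at most 3 UMIs, and in primary tumor TME 7.81 and 8.97 CPM. The primary tumor values lay below all lung values, and 1 metastasis value, from 3 UMIs of 26 cells, lay inside the lung range. Il1rl1 fell by 3.04 ± 0.65 in metastasis (edgeR, adjusted p = 0.00894, n = 4 and 4) and by 2.13 ± 0.51 in primary tumors (adjusted p = 0.0161, n = 2 and 4) on the log2 scale.

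T cells carry Il1rl1, and their 7 markers summed in the C1q macrophages to 24.7 to 269 CPM in lung, 0 to 109 CPM in metastasis TME and 45.2 and 62.1 CPM in primary tumor TME. The 6 basophil and mast cell markers, of cells that also carry the receptor, summed to 0 to 23.9 CPM over all 10 libraries. Their part in the result was not tested. The Il1rl1 result was lost in metastasis without the pooled replicate 1-3 (adjusted p = 0.0652), and in primary tumors without either tumor library or without lung replicate 5 (adjusted p up to 0.207). Without a primary tumor library that group has 1 library, which is then assumed to vary like the other groups. With the replicate number as a block both Il1rl1 calls were lost (adjusted p = 0.0523 in metastasis and 0.151 in primary tumors).

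Il1rn in C1q macrophages was 80.0 and 76.0 CPM in primary tumor TME and 14.7, 16.1, 0 and 21.9 CPM in lung, with no overlap. It rose by 2.46 ± 0.54 on the log2 scale (edgeR, adjusted p = 0.00915). In metastasis TME the values were 39.4, 8.35, 11.1 and 77.7 CPM, spread over both ranges, and the difference from lung was not called (1.56, adjusted p = 0.105). The 8 neutrophil markers summed to 130 and 195 CPM in primary tumor C1q macrophages. In lung replicates 1, 4, 5 and 6 they summed to 103, 13.4, 631 and 3115 CPM. Their part in the result was not tested. The Il1rn call was lost without either primary tumor library (highest adjusted p = 0.0874), where the remaining library is assumed to vary like the other groups. In lung replicate 6, AT-2 cells (49.5 CPM), B cells (46.4 CPM) and NK cells (45.9 CPM) had more Il1rn than C1q macrophages, so the lung value of 21.9 CPM lies within the background.

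With 5 members tested, C1q macrophages thus gave 1 call between metastasis and lung (7.59% of 6996 genes called), 2 between primary tumor and lung (8.78% called) and none between metastasis and primary tumor (0% called; 344 genes and none of the members had an unadjusted p under 0.05, and DESeq2 called 18 genes and none of the members). Il1b in C1q macrophages was 436 and 651 CPM in primary tumor TME against 70.0, 88.7, 101 and 298 CPM in lung, and 165, 33.4, 83.2 and 611 CPM in metastasis TME. It did not pass the test between primary tumor and lung (1.98 ± 0.68, edgeR adjusted p = 0.0811). With the replicate number as a block this difference was called, with the values given in the last section. Endothelial cells of the primary tumor libraries had at most 19.1 CPM of Il1b, so the primary tumor values are above this background.

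**Figure D3:**
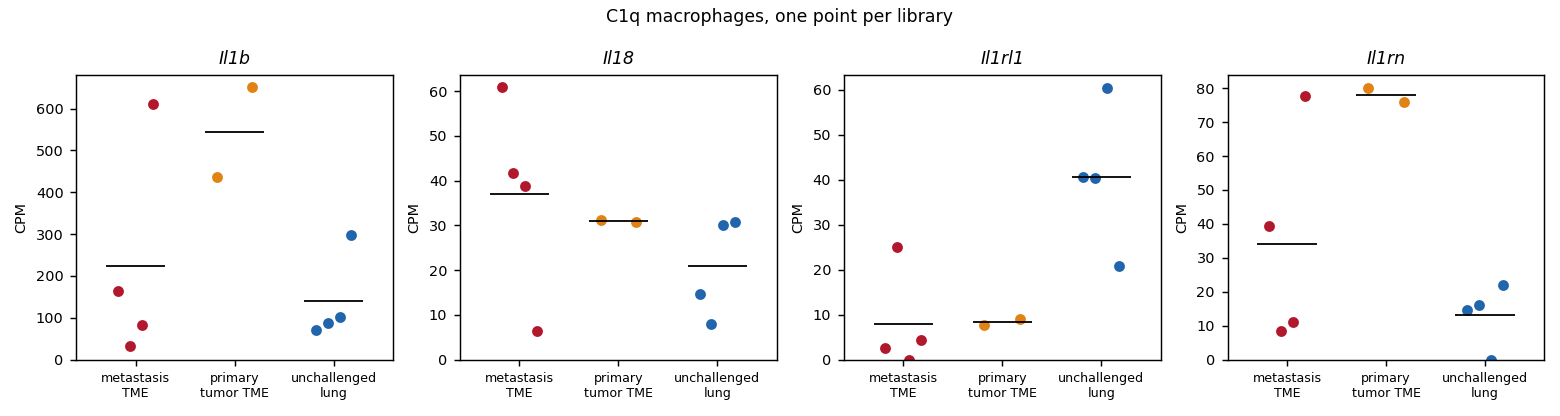
Levels of Il1b, Il18, Il1rl1 and Il1rn in C1q macrophages as CPM (vertical axes) by tissue (horizontal axes); each point is a library with at least 20 such cells and the black line is the mean. Il1rl1 is 20.9 to 60.3 CPM in the 4 lungs and under 9 CPM in both primary tumors, and Il1rn is 76.0 and 80.0 CPM in primary tumors and at most 21.9 CPM in lung.

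In fibroblasts, Il18r1 was the 1 member that passed the test, between primary tumors and lung. It was at 12 CPM (4 UMIs), 2.98 CPM (3 UMIs) and 62.7 CPM (281 UMIs) in lung replicates 4, 5 and 6, against 0, 0 and 0.200 CPM (1 UMI) in primary tumor TME replicates 4, 5 and 6. All lung values were above all primary tumor values. In the same lungs B cells, as background, had 11.4, 4.62 and 31.4 CPM, and neutrophils 0, 24.0 and 34.5 CPM. The fibroblast value of replicate 5 lay below both, and that of replicate 4 was close to the B cells. In replicate 6, classical monocytes had 52.1 CPM. The part of free RNA in the lung values was not tested. The edgeR log2 fold change was −7.07 ± 1.40 (adjusted p = 0.0144, n = 3 and 3). With UMIs pooled, the lung level was 340 times the primary tumor level (95% exact interval 60.5 to 13471), and 35.9 times without lung replicate 6 (4.61 to 1617), both covering counting error only. Of the 281 UMIs of lung replicate 6, 153, 43 and 55 lay in subclusters 1, 2 and 3 of the fibroblast clusters. These were led by ciliated, neutrophil and alveolar macrophage markers, as described next. Metastasis fibroblasts had 20.0 and 52.5 CPM in replicates 5 and 6, and the difference from primary tumors was not called (7.29, adjusted p = 0.0583).

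Parts of the fibroblast clusters carried RNA of other cell types. When the 5567 cells were clustered again, 3546 of them fell into 4 of 12 subclusters whose leading marker lists were those of melanoma, ciliated, neutrophil or alveolar macrophage cells. These cells were 73.5% of the fibroblast cells of primary tumor TME replicate 6 and 83.0% of those of unchallenged lung replicate 6. In the other TME and lung libraries they were at most 10.3% of the fibroblast cells. Subclusters 5, 10 and 11, led by mesothelial, pericyte and smooth muscle markers, were not counted among them and were kept. They held 211, 33 and 75 of the 432 cells of metastasis TME replicate 5, so the fibroblast clusters there are a mix of structural cells. The subcluster led by melanoma markers had 145 CPM of Il33 in primary tumor TME replicate 6, against 1.53 to 9.43 CPM in sorted MM cells. Whether the cells of the 4 subclusters are fibroblasts with free RNA or cells of other types was not tested. Ciliated cells carry Il18r1, as given above, at 156 CPM in lung replicate 6. Without the 4 subclusters, an alternative added after the data were seen, Il18r1 was called in primary tumors against lung (−7.06, edgeR adjusted p = 0.0152) and in metastasis against primary tumors (8.23, adjusted p = 0.0245). With both replicate 6 libraries left out, also added later, the first of these was lost (−5.33, adjusted p = 0.112) and the metastasis difference was called (7.80, adjusted p = 0.0227). Over all fibroblast cells, the call of primary tumors against lung was also lost without primary tumor TME replicate 5 and without primary tumor TME replicate 6.

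Il1r1, the signalling receptor of IL1, was 169 and 308 CPM in metastasis fibroblasts, 66.4, 62.2 and 43.8 CPM in primary tumor fibroblasts and 102, 132 and 31.7 CPM in lung fibroblasts. Both metastasis values lay above all others. The test did not call the difference from primary tumors over all fibroblast cells (1.99 ± 0.55, edgeR adjusted p = 0.158). Without the same 4 subclusters, but with subcluster 5 kept, it was called (1.86, adjusted p = 0.0341). The fibroblasts of the tissues lay in different subclusters, which are described after these values: subcluster 5 held 211 of 432 and 31 of 53 metastasis fibroblasts in replicates 5 and 6 but 1 or 2 cells in each primary tumor library, whose cells apart from those of the 4 subclusters lay mostly in subclusters 6, 8, 9 and 10. How far this mix sets the differences of Il1r1, Il1rl1 and Il18r1 between tissues was not tested.

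Il1rl1 had the opposite order. It was 0.555 and 0 CPM in metastasis fibroblasts, 7.08, 21.6 and 22.8 CPM in primary tumor fibroblasts and 0, 0 and 4.69 CPM in lung fibroblasts, so the primary tumor values did not overlap with the rest. Over all fibroblast cells it was not called (−5.02 for metastasis minus primary tumor, edgeR adjusted p = 0.175, and 2.74 for primary tumor minus lung, adjusted p = 0.0729). Without the same 4 subclusters both were called (−4.91, adjusted p = 0.0407, and 5.03, adjusted p = 0.00648). The Il1rl1 UMIs lay unevenly in primary tumor fibroblasts. In replicate 5, 15 of 16 were in 12 cells of subcluster 4, and in replicate 4, 7 of 8 were in 30 cells of subcluster 8. In replicate 6, 47 of 114 were in subcluster 0, led by melanoma markers, and 46 in subcluster 8. Il33 spread widely within tissues, at 99.9 and 185 CPM in metastasis, 76.1, 295 and 195 CPM in primary tumors and 6.02, 172 and 35.1 CPM in lung, and no comparison of it was called.

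Il18 and Il1b in the fibroblast clusters were highest in lung replicate 6. It is the TME or lung library with the largest share of cells in the 4 subclusters led by markers of other types. Il18 was 69.2 CPM in lung replicate 6 and 3.01 to 21.1 CPM in the other 7 libraries, and was not called (primary tumor minus lung −2.69, edgeR adjusted p = 0.0682). Il1b was 553 CPM in lung replicate 6 and 137 CPM in lung replicate 5, and 0 to 60.2 CPM elsewhere, while B cells had 466 and 139 CPM in lung replicates 6 and 5. Endothelial cells of the same libraries had 113 and 33.8 CPM, and the part of free RNA in these values was not tested.

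Of the 9 members tested in fibroblasts, 1 was therefore called between primary tumor and lung (11.8% of 11135 genes called), none between metastasis and primary tumor (0.997% called) and none between metastasis and lung (0.862% called). At an unadjusted p under 0.05 these counts were 3, 3 and 2, and DESeq2 called 2, 2 and 0. With the replicate number as a block, 3 were called: Il18r1 in primary tumors against lung (−7.40, edgeR adjusted p = 0.00333) and in metastasis against primary tumors (8.29, adjusted p = 0.0104), and Il1rl1 in primary tumors against lung (3.21, adjusted p = 0.0398).

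**Figure D4:**
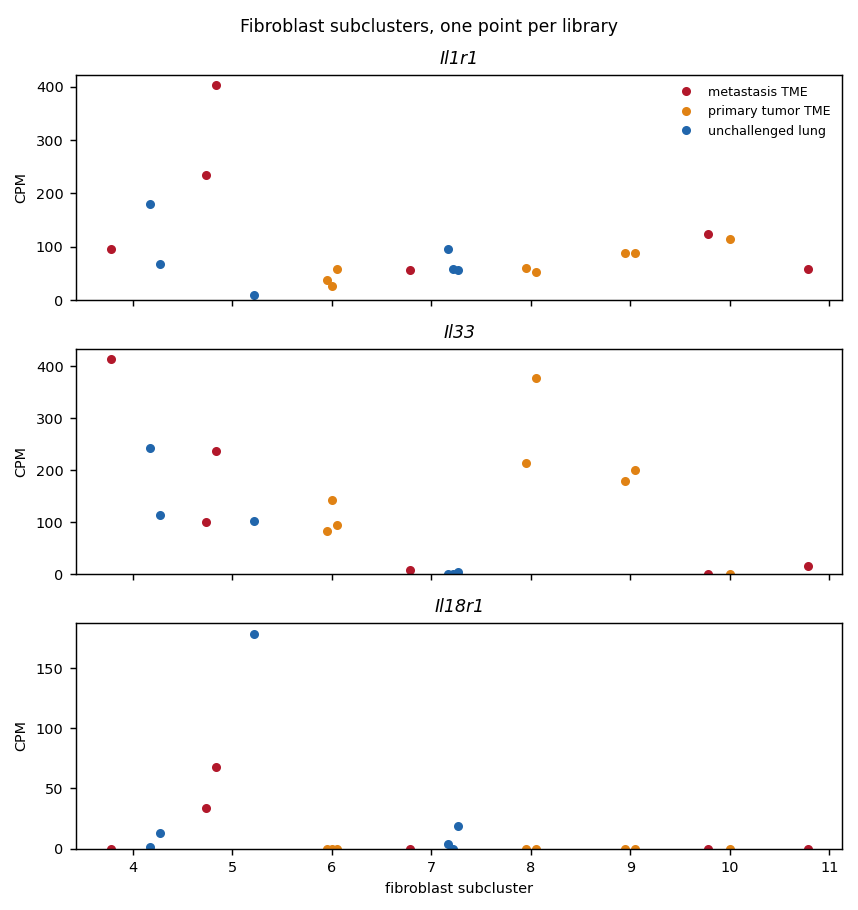
Levels of Il1r1, Il33 and Il18r1 as CPM (vertical axes) in fibroblast subclusters 4 to 11 (horizontal axes), each point a library with at least 20 cells of the subcluster, colored by tissue. Among the subclusters shown, subcluster 5 has the highest Il1r1 (234 and 403 CPM in metastasis) and the highest Il18r1, and subclusters 4 and 8 have the highest Il33.

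The subclusters differed in which receptor or ligand they carried. Subcluster 5 was led by Gpm6a, Upk3b and Msln and carried all 8 mesothelial markers and all 6 markers listed for metastasis CAFs (Clu, Cxadr, Lgals7, Calca, Wnt4 and Wt1), so the lists do not separate these identities. Its Il1r1 level was 234 and 403 CPM in metastasis TME replicates 5 and 6 and 9.41 CPM (1 UMI) in lung replicate 6. Its Il18r1 level was 34.1 and 68.0 CPM in metastasis and 179 CPM (19 UMIs) in lung. No Il18r1 UMI was found in subclusters 6, 8, 9, 10 or 11 in the libraries with at least 10 cells of the subcluster, and libraries with fewer were not read. The differences between subclusters are given as a description, and values of libraries with 10 to 19 cells of a subcluster are included.

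Il33 followed other subclusters. Subcluster 4, with the adventitial markers Pi16 and Clec3b, had 113 to 899 CPM over 4 libraries, the highest from 12 cells. Subcluster 8, led by Ero1l, had 213, 406 and 377 CPM in primary tumors, and subcluster 6, led by Fbn2 and Col28a1, 83.2, 142 and 94.8 CPM. In subcluster 7, with all 5 alveolar fibroblast markers, Il33 was 0 to 8.17 CPM, and in subcluster 10, with all 8 pericyte markers, 0 to 7.85 CPM. The same subclusters 7 and 10 did carry Il1r1, at 56.7 to 95.9 CPM and 78.5 to 124 CPM, so the ligand Il33 and the receptor Il1r1 were not bound to the same cells.

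In endothelial cells (BEC), Il1r1 and Il33 were higher and Il1rap lower in primary tumors than in unchallenged lung. Il1r1 was 47.9, 56.0, 53.9 and 43.2 CPM in primary tumor TME replicates 1-3, 4, 5 and 6, above the 32.8, 23.2, 29.9 and 27.7 CPM of lung and the 0, 25.9, 21.9 and 28.4 CPM of metastasis TME. The primary tumor values did not overlap with either group. The log2 difference was 0.93 ± 0.31 from lung (edgeR, adjusted p = 0.0335, n = 4 and 4), and metastasis fell by 1.22 ± 0.34 from primary tumor (adjusted p = 0.0298).

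Il1rap was 12, 5.09, 7.09 and 8.33 CPM in primary tumor TME against 19.4, 12.8, 18.5 and 27.7 CPM in lung, again without overlap (−1.22 ± 0.34, edgeR adjusted p = 0.0141). Metastasis endothelium had 10.5 to 14.5 CPM of Il1rap and was not called against either. T cells had 7.91 to 15.7 CPM, but these values come from metastasis TME and lung libraries only. Whether T cells lack Il1rap was not tested. Whether the primary tumor endothelium lay above the background therefore cannot be told.

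Il33 was 24.0, 1.27, 14.2 and 43.2 CPM in primary tumor endothelium against 2.35, 1.58, 8.90 and 8.95 CPM in lung. Replicate 4 of the primary tumors was below all lungs, so the groups overlapped, and the call was narrow (2.14 ± 0.76, edgeR adjusted p = 0.0482). It was lost in 10 of 20 alternatives, with adjusted p up to 0.383.

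Of the 3 members tested, 3 were called between primary tumor and lung, where 27.9% of 9754 genes were called. Il1r1 alone was called between metastasis and primary tumor (11.5% called), and none between metastasis and lung (3.31% called; none had an unadjusted p under 0.05, and DESeq2 called none). The call of Il1r1 against lung was lost in 6 of 20 alternatives, that against metastasis in 5 of 20, and that of Il1rap without primary tumor TME replicate 4 (adjusted p = 0.0537). With the replicate number as a block, the Il33 call was the 1 lost of 4 (1.37, edgeR adjusted p = 0.0565).

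The endothelial cells of the tissues lay in different clusters, which moves with these results. Primary tumor endothelium lay mostly in cluster 12, led by Slc6a2 and Vwf, whereas lung endothelium was spread over clusters 5, 12 and 17, led by Npr3, Slc6a2 and Rprml. Within cluster 12, Il1r1 was 46.0, 56.0, 53.9 and 43.2 CPM in primary tumors and 67.5, 29.6, 49.9 and 27.3 CPM in lung, which overlapped. Il33 within cluster 12 was 1.27 to 43.2 CPM in primary tumors and 16.7 to 37.5 CPM in lung, which overlapped too, while lung cells of cluster 5 had 0 to 1.17 CPM and those of cluster 17 had none. Il1rap was highest in lung cells of cluster 17, at 37.8, 37.3, 39.7 and 42.7 CPM, and within cluster 12 was 4.60 to 8.33 CPM in primary tumors and 5.55 to 23.9 CPM in lung. How far the mix of clusters sets the endothelial differences was not tested.

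Cluster 17 was also where endothelial Il1a lay. It was led by Rprml, Fibin and Car4, a carbonic anhydrase of lung capillaries. Its Il1a level was 37.8, 35.6, 25.9 and 19.2 CPM in lung replicates 1, 4, 5 and 6, from 34, 40, 49 and 9 UMIs. No Il1a UMI was found in cluster 5 in any of 8 libraries, which hold up to 1280 cells each of that cluster, and cluster 12 had 0 to 3 UMIs per library. In metastasis TME, cluster 17 had 11.9 CPM (5 UMIs) and 79.0 CPM (6 UMIs in 24 cells) in replicates 5 and 6. Il1a did not pass the filter on low counts in the endothelial fit, so it has no test between tissues, and the clusters are compared as a description.

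**Figure D5:**
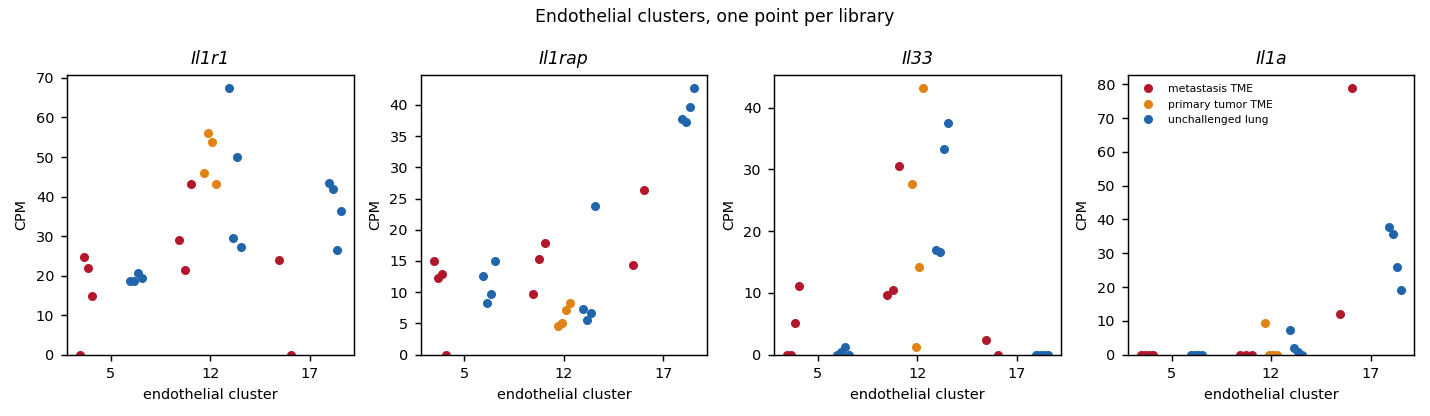
Levels of Il1r1, Il1rap, Il33 and Il1a as CPM (vertical axes) in endothelial clusters 5, 12 and 17 (horizontal axes), each point a library with at least 20 cells of the cluster, colored by tissue. In cluster 12 the primary tumor and lung libraries overlap for Il1r1, Il1rap and Il33, and lung cells of cluster 17 have Il1rap at 37.3 to 42.7 CPM and Il1a at 19.2 to 37.8 CPM.

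The MM cells themselves expressed few members. Il1rap was named above, Il18 was 4.45 to 9.76 CPM, Il33 1.53 to 9.43 CPM and Il1b 0.064 to 0.674 CPM in the 4 sorted libraries. None of the 4 members tested was called between metastasis and primary tumor MM cells, where 0.014% of 14276 genes were called (edgeR; none of the members had an unadjusted p under 0.05, and DESeq2 called 30 genes and none of the members). The largest difference was that of Il33, 1.17 on the log2 scale (adjusted p = 1.00).

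Other genes of the pathway were read from 4 lists: 15 further family members, 8 genes of precursor processing, 15 of signalling and 15 known targets. The lists were chosen with earlier results of these data known. A gene can pass the filter on low counts through the tissue where it is high. The counts and medians of the lists are therefore a description and not a test of the pathway. Among the targets, 4 of 7 tested in C1q macrophages were higher in metastasis than in lung, and 4 of 7 in primary tumors, with none lower (median log2 fold change 2.94 and 3.40, against −0.01 and −0.04 over all genes tested, of which 7.59% and 8.78% were called). They were Ccl2 (3.74 and 4.64), Ccl7 (3.73 and 4.52), Cxcl2 (2.94 and 3.40), which encode chemokines for monocytes and neutrophils, and Saa3 (6.08 and 3.57), an acute phase gene. Of the processing genes, Pycard, the adaptor of inflammasomes, was the 1 higher of 7 in both comparisons (1.64 and 1.51). Of 14 signalling genes, 2 were lower in metastasis, among them Nfkb1 (−1.16), and none was called in primary tumors.

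In fibroblasts, 3 of 13 targets tested were higher in metastasis than in lung: Saa3 (10.32), Cxcl5 (7.85) and Ccl7 (4.33). In primary tumors 5 were higher, led by Cxcl5 (7.58), Saa3 (6.45) and Ccl7 (5.91), and Vcam1 was lower (−2.27). None of the 15 signalling genes or 4 processing genes was called in fibroblasts. The median of the targets was 0.26 and 0.42, against −0.03 and −0.04 over all genes, of which 0.862% and 11.8% were called.

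In neutrophils, 2 of 5 targets were higher and 1 lower in metastasis than in lung (Saa3 5.61, Cxcl2 1.14 and Ptgs2 −1.43), and 2 of 5 were higher in primary tumors (Cxcl2 2.53 and Ccl2 3.42). Pycard was higher in both (2.01 and 1.81), and Irak2, a kinase of the receptor complex, was the 1 signalling gene of 11 called in primary tumors (1.74). The shares of all genes called in these neutrophil comparisons were 14.2% and 7.32%. In endothelial cells, Ccl2 was higher in primary tumors than in lung (5.77) and than in metastasis (metastasis minus primary tumor −3.73). Of 15 signalling genes in that comparison with lung, Nfkbiz was higher (1.43) and 3 were lower, among them Rela (−1.12) and Tnfaip3 (−1.48), a share near the 27.9% of all genes called there. No list gene was called between metastasis and primary tumor in neutrophils, C1q macrophages, fibroblasts or MM cells, where 0.227%, 0%, 0.997% and 0.014% of all genes were called. Free RNA was not removed from these counts, and its part in them was not tested.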

How the data were processed

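Single-cell 3' libraries were read from the deposited table of raw counts (UMIs per gene and cell), which the authors made with Cell Ranger 6.1.1 and Seurat 3.2.2 on GRCm38 (mm10) after filtering cells on detected genes and on mitochondrial and ribosomal share. Their log-normalized table was not used here. Of 24 library names, 5 held the same cells as another and were counted once (9924 of 110283 barcodes). Of these 5 names, 1 also matched no label and was not used. The names of single mice under replicates 1-3 were joined into 1 library per tumor site. No doublet caller was run, and the methods name no removal of doublets.

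Cells were clustered with Seurat 5.3.0 (2000 variable genes without the 10 members, 17 principal components, resolution 0.5; 12 components for fibroblasts). A cluster of at least 100 cells was named where at least 3 markers of a type were raised (log2 fold of at least 1, in at least 10% of cells). Counts were summed per library and type with at least 20 cells, and libraries were the replicates. Tissue contrasts were fitted with edgeR 4.0.16 (glmQLFit and glmQLFTest, filterByExpr, TMM) in R 4.3.3, with Benjamini-Hochberg adjustment over all genes tested and a threshold of 0.05. Cell types were compared within libraries on log2(CPM + 1) by exact sign-flip tests, adjusted over 10 pairs. DESeq2 1.42.0, other filters and cell minimums, thinning to 1000 UMIs, a replicate block, and leaving out each library were alternatives. Scripts were tested on simulated data with 200 genes changed by 2 on the log2 scale, of which 71.5% were recovered in neutrophils, 87.5% in C1q macrophages, 16.5% in fibroblasts, 84.0% in endothelial cells and 67.0% in MM cells. Likeness was Pearson's r over 35 mean levels.

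The members, marker lists and pathway lists were chosen with earlier results of these data known. All 10 members are described, the 3 most alike genes were taken per member (those of Il1rap are not reported here), and at most 6 called genes per contrast were named from the pathway lists. Replicate numbers were checked as pairs: the correlation of same-numbered libraries was over 0.1 in 3 of 6 pairs of C1q macrophages, 4 of 10 of endothelial cells, 2 of 7 of fibroblasts, 1 of 4 of neutrophils and 2 of 2 of MM cells (0.387 each). The MM pairs hold 1 value, since 2 libraries of a site deviate from their mean as mirror images. Pairs with different numbers also passed 0.1, up to 0.278 in endothelial cells, so these counts do not show that same numbers pair. Fits were made without a block, as planned, and the values with it are given where they end a call. Nothing says that libraries of a group are separate preparations in every step, and p-values measure only the spread between these libraries. Each type has few libraries, which limits the precision, and intervals cover counting error only.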

Additional observations from a re-analysis of the deposited data

Results flagged for a closer look

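Of 32 groups of 4 libraries or more whose values were examined for a library far from the others, 3 had one. Chance gives about 1 in 20. Il1b in C1q macrophages of unchallenged lung replicate 6 was 298 CPM (300 UMIs), while the other lungs had 70.0 to 101 CPM. B cells of that library had 466 CPM. Il1r2 in C1q macrophages of metastasis TME replicate 4 was 184 CPM, from 22 UMIs in 26 cells, and the next library had 9.86 CPM. Il1rl1 in endothelial cells of unchallenged lung replicate 6 was 9.77 CPM (12 UMIs), and the next lung had 1.43 CPM.

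The sorted MM libraries were not used for host cells in the comparisons. Metastasis MM replicate 4 nevertheless held 63 neutrophils, with an Il1b level of 5333 CPM from 1319 UMIs, while the melanoma cells of the same library had 0.674 CPM. This Il1b level lies above the 3037 to 3465 CPM of metastasis TME neutrophils and inside the range of the lungs. No explanation was tested for these values.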

How the results depend on the processing

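Over the settings, 1054 member contrasts kept their direction and side of the threshold, 43 passed it newly and 34 lost it, and no member contrast turned its direction. The count of called members and contrasts was 1 in neutrophils, 3 in C1q macrophages, 1 in fibroblasts, 4 in endothelial cells and 0 in MM cells, where it was 0 throughout. DESeq2 gave 3 in neutrophils and 4 in fibroblasts. Without the filter on low counts there were 5 in neutrophils, 10 in C1q macrophages and 6 in fibroblasts. A minimum of 50 cells per library gave 6 in neutrophils and 7 in C1q macrophages, and a minimum of 10 gave 3 in fibroblasts. Cells thinned to 1000 UMIs gave 0 in C1q macrophages, fibroblasts and endothelial cells, where only 1, 3 and 0 members still passed the filter. Replicates 5 and 6 alone gave 2 in fibroblasts and 8 in endothelial cells. They gave 0 in neutrophils and 0 in C1q macrophages, where only 1 contrast, metastasis against lung, could be fitted, so the primary tumor calls were not tested there. Fibroblasts without the 4 subclusters led by melanoma, ciliated, neutrophil and alveolar macrophage markers, a setting added after seeing the data, gave 5. Leaving out a library at a time gave 1 to 4 in neutrophils, 1 to 4 in C1q macrophages, 0 to 5 in fibroblasts and 1 to 4 in endothelial cells. Of the 10 differences between cell types, 7 were called, 2 with at least 50 cells, where fewer libraries entered, and 6 to 7 without a library. The causes of the other changes were not tested.

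With the replicate block, the counts were 0 in neutrophils (Il1rn 1.73, adjusted p = 0.115), 2 in C1q macrophages, 3 in fibroblasts and 3 in endothelial cells. In C1q macrophages the block lost both Il1rl1 calls (adjusted p = 0.0523 and 0.151) and added Il1b in primary tumors against lung (2.68, adjusted p = 0.0285). In the pairing, same-numbered libraries share a sequencing run, and those of metastasis and primary tumor numbered 1-3, 5 and 6 also share mice, while lung mice are shared with no tumor library. Replicates 5 and 6 alone are the values within a run. Depth limits Il1a and Il1rl1 in many libraries, such as Il1rl1 in metastasis C1q macrophages with at most 3 UMIs per library.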
